A study of Homo sapiens with 9 samples.

Results

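The genes described here are those that the deposited expression table assigns to the pathway entry for eukaryotic ribosome biogenesis. They are 75 of the 16772 genes in the table, found by the whole entry, and no gene had to be dropped for a name of the ribosomal protein or mitochondrial ribosomal protein families. Values are FPKM, fragments scaled to transcript length and to the mapped fragments of the library, so levels can be compared between genes per length. Of the 75 genes, 71 passed a filter on low values (3 or more of the 9 libraries at an FPKM of 1 or higher), and they were tested together with all 11525 genes that passed it. The gene ontology column of the same table, which the choice did not use, gives 49 of the 75 genes (65.3%) the term nucleolus, against 6.59% of the 11525 tested genes. RNA came from wild-type cells of DU145, an established line from a human prostate carcinoma, kept for 6 days with the solvent DMSO, with 20 µM H93 or with 500 nM SAHA, both dissolved in DMSO, and each group had 3 libraries. The series title describes H93 as directed at UHRF1, a reader of hemimethylated DNA that brings the maintenance methyltransferase DNMT1 to replicated DNA, and SAHA (vorinostat) inhibits histone deacetylases. The doses of the 2 compounds differ, the data come from 1 cell line, and nothing in the labels says that replicates came from separate cultures, which means that p-values rest on a spread among libraries that may be technical only.

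Ribosome biogenesis begins in the nucleolus, where RNA polymerase I transcribes the long precursor of the ribosomal RNAs. Small nucleolar ribonucleoproteins modify that precursor, the small subunit (SSU) processome folds and cuts it for the 40S subunit, and further nucleases, GTPases and AAA ATPases prepare the 60S subunit. Export factors then carry both subunits through the nuclear pore, and the last assembly factors leave in the cytoplasm. In growing tumour cells the demand for new ribosomes is high, and the nucleolar factors are well-known targets of the transcription factor MYC. The library kit selects mRNA, so the values below describe the mRNAs of the assembly factors, not ribosomal RNA or ribosome output.

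The libraries were alike in size and content. FPKM summed to between 348656 and 355741 per library, low values put the depths within 0.875 and 1 of the deepest library, and the absolute depth was unknown. Log2 values of replicates correlated at 0.9976 to 0.9983 across genes, and between any pair of libraries 0 nonzero values were identical. The epithelial keratin KRT8 stood at an FPKM of 664 to 737 and KRT18 at 653 to 714, and the leukocyte gene PTPRC at 0 to 0.0179. Of the marker genes, KRT5, KLK2, KLK3 and CD3E are among those that are not rows of the table. The endothelial markers reached at most 0.152, and of the fibroblast markers COL1A1 stood at 2.04 to 3.58, COL1A2 at 0.235 to 1.5 and the others at most at 0.887. Some markers differed between groups, given here for DMSO, H93 and SAHA in turn. KRT19 ran from 168 to 171, from 418 to 424 and from 318 to 339. EPCAM ran from 66.1 to 67.7, from 29.6 to 31.7 and from 35.7 to 39.4, and CDH1 from 13.3 to 13.4, from 4.04 to 4.7 and from 4.88 to 5.27. CD68, a lysosomal protein of macrophages and other cells, ran from 22.1 to 22.8, from 27.4 to 29.1 and from 31.5 to 34.9. Their part in the results below was not tested. In RNA from a whole culture, fewer cells that express a gene and less of its RNA per cell cannot be told apart, and FPKM gives a share of the mapped fragments, not an amount per cell.

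The first comparison asked what H93 changed in these genes relative to the solvent. Treacle, the box H/ACA pseudouridine synthase dyskerin, the SSU processome scaffold gene HEATR1 and the export receptor gene XPO1 were lower, and the 60S release factor gene SBDS and the small box H/ACA protein gene NOP10 were higher. A gene is said to have risen or fallen where its limma p-value, adjusted by Benjamini-Hochberg over 11525 genes, was under 0.05, and differences are of log2(FPKM + 1). Of 71 tested members 34 fell (47.9%) and 15 rose (21.1%), while 22 did not pass. Over all tested genes 69.8% passed, 35.0% as lower and 34.9% as higher, so the share of members that fell was above that background and the share that rose was below it. That background was not matched for level: the median of mean FPKM was 22.56 for tested members and 10.01 for all tested genes. Members were also chosen with earlier results of these data known. The median log2 difference of the members was -0.055, beside 0.0016 over all tested genes. No member changed 2-fold, where 2.28% of all tested genes did, and the members' log2 differences ran from -0.61 to 0.48. The median size of the difference, regardless of sign, was 0.16 for members and 0.20 for all tested genes. The 2 groups of libraries did not overlap for 35 members that were lower and 16 that were higher in H93, where 36.8% and 36.4% of all tested genes were lower or higher without overlap.

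**Figure D1:**
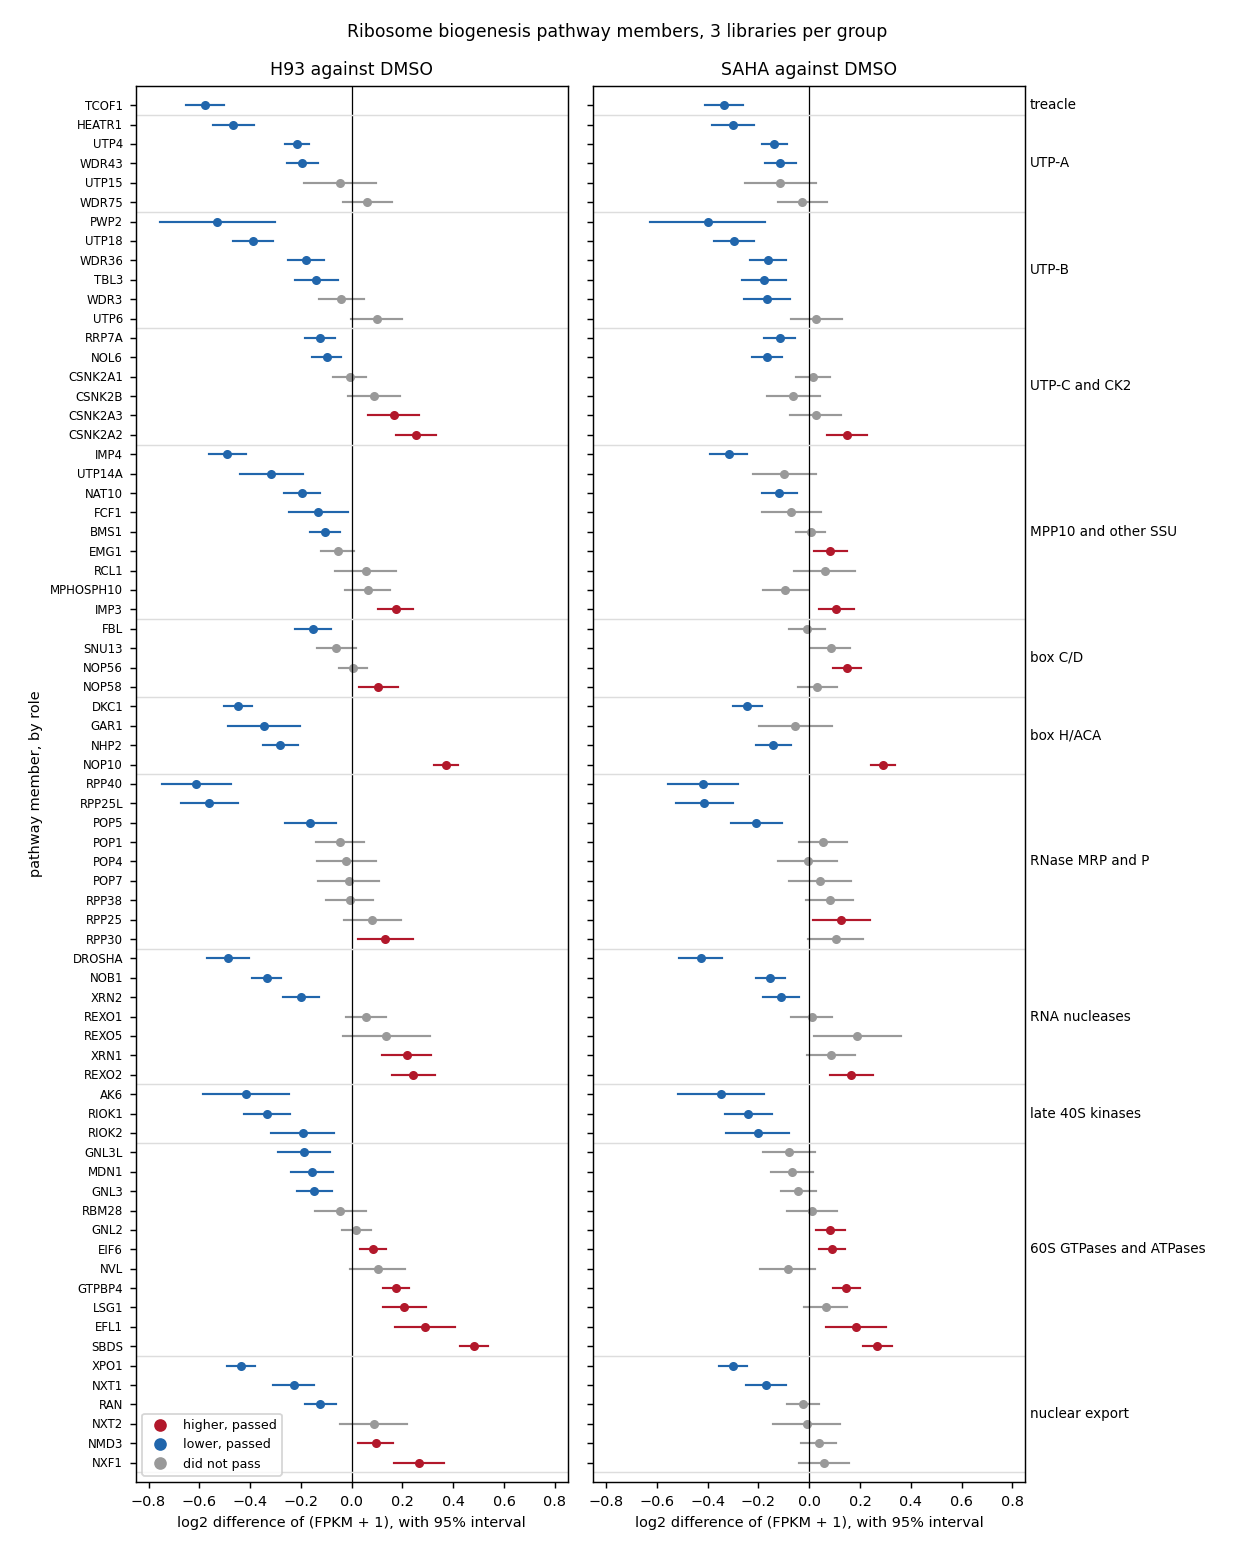
Log2 differences of log2(FPKM + 1) with 95% intervals for the 71 tested members, H93 against DMSO at left and SAHA against DMSO at right, ordered by role (3 libraries per group, both panels share the DMSO libraries). Blue genes fell, red genes rose and grey genes did not pass; in the box H/ACA rows NOP10 lies at 0.37 after H93 while DKC1, GAR1 and NHP2 lie between -0.45 and -0.28.

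The promoters of the members were read for 2 short motifs. RefSeq windows from 250 bases before to 50 bases after the gene start (GRCh38.p14) were found for 69 of the 75 members. The letters CACGTG, the canonical E-box and its own reverse complement, stood in 17 of these 69 windows (24.6%), against 10.3% of 9528 windows of tested genes and 7.26% of 35116 windows in all. Of the windows of members that fell after H93, 12 of 33 held it, of those that rose 2 of 14, and of tested members that did not pass 3 of 19. The same split was not made for all tested genes, so these few windows do not show a trait of the members that fell. The letters CCGGAAG, searched on both strands and known as an ETS-type element, stood in 26 of 69 windows (37.7%), against 20.6% of tested genes and 10.3% of all windows. A match describes letters in these windows, and no test was made of it. The stretches that follow show each CACGTG of a member (capitals) with 25 bases on either side, inside the window and before the RefSeq start. Stretches that meet an exon of GENCODE 29 were left out. In UTP14A, which fell, the motif lay 241 bases before the start, too near the window's edge to be shown. The stretches run 5′ to 3′ on the gene's strand, so that surroundings can be compared between members that fell (MDN1, UTP18), rose (REXO2) or did not pass (POP7).
MDN1, chr6:89819919-89819974, minus strand: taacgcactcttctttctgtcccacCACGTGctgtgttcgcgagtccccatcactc
UTP18, chr17:51260432-51260487, plus strand: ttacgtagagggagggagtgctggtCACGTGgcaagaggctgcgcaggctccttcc
REXO2, chr11:114439278-114439333, plus strand: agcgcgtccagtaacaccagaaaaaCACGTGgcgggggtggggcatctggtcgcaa
POP7, chr7:100705956-100706011, plus strand: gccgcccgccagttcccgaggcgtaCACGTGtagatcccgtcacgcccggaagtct
The first base of the motif lay 155 bases before the RefSeq start in MDN1, 89 in UTP18, 164 in REXO2 and 140 in POP7. GENCODE 29 places gene starts differently, so that in IMP4 and RAN, for example, the motif before the RefSeq start lies inside the gene. There the stretch of 56 bases around it meets an exon of this or another gene. In the stretches shown, the letters beyond the motif differed from gene to gene. The motif stood before the RefSeq start in some members that fell and in some that rose. In others that fell, such as FBL, NOL6, PWP2 and WDR43, it lay only after that start. A part of the motif in the differences was not tested.

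Transcription of ribosomal DNA is represented in the pathway entry by 1 gene, TCOF1, which encodes treacle, a nucleolar cofactor of RNA polymerase I that is mutated in Treacher Collins syndrome. TCOF1 stood at 42.1, 41 and 40.7 in the DMSO libraries, at 26.2, 27.1 and 28.8 in H93 and at 31.8, 32.5 and 33.2 in SAHA. Every H93 library lay below every SAHA library, and every SAHA library below every DMSO library. The log2 difference of H93 against DMSO was -0.58 (SE 0.0349, adjusted p = 1.98e-08, limma with Benjamini-Hochberg). It lies on chromosome 5 from 150357629 to 150400308 in the GENCODE 29 annotation of GRCh38, as a protein-coding gene.

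The UTP-A subcomplex binds the start of the ribosomal RNA precursor and links its transcription to processing. Of its 5 tested members 3 fell after H93 and 0 rose. Counts by role are descriptions of few genes, to be read against the 35.0% that fell and 34.9% that rose over all tested genes. HEATR1, its largest scaffold protein, went from 12.6, 12.8 and 12.6 in DMSO to 9.18, 8.74 and 8.77 in H93 (log2 difference -0.47, SE 0.0375), with 10.2, 10.4 and 9.66 in SAHA. The H93 libraries did not overlap with either of the other groups. HEATR1 overlaps LGALS8 on the other strand, and the sources used here do not give whether the authors counted by strand. LGALS8 lay between 2.40 and 2.76 in the 9 libraries. In all, 24 members overlap another protein-coding gene, 7 on the same strand and 21 on the other, UTP4 among the former, and their values carry the same uncertainty. UTP4 fell from 52.5 ± 0.226 to 45.1 ± 0.364 and WDR43 from 52.7 ± 0.355 to 46 ± 1.1 (mean ± SD, n = 3 here and below). UTP15, at 6.01 and 5.8, and WDR75, at 15.3 and 16, did not pass.

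The UTP-B subcomplex, a set of mostly WD-repeat proteins that holds the 5′ external spacer of the precursor, had 4 of 6 members that fell and 0 that rose. UTP18 stood at 26.4, 26.5 and 26.4 in DMSO, 20.6, 19.3 and 20 in H93 and 20.2, 22 and 21.8 in SAHA. The DMSO libraries lay close together and above all the others, while H93 and SAHA overlapped. PWP2 fell from 7.94 ± 1.25 to 5.16 ± 0.408, with a wide interval of the log2 difference (-0.75 to -0.30), and DMSO replicate 3 stood at 9.38 and the others at 7.14 and 7.29. WDR36 and TBL3 fell less, to 0.873 and 0.9 of their DMSO means. WDR3 (-0.040) and UTP6 (0.098) did not pass in H93 against DMSO on the log2 scale.

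UTP-C joins the processome proteins NOL6 and RRP7A to casein kinase 2, a protein kinase with many other substrates. NOL6 fell from 38.2 ± 0.473 to 35.6 ± 0.611 and RRP7A from 24.8 ± 0.534 to 22.6 ± 0.305. The kinase genes did not go that way. CSNK2A2, a catalytic subunit, rose from 22.3, 23.4 and 22.6 to 28.7, 26.3 and 27, without overlap. The other catalytic subunit CSNK2A1 (21.6 and 21.5; 95% interval of the log2 difference -0.075 to 0.058) and the regulatory subunit CSNK2B (153 and 163; -0.015 to 0.19) did not pass. CSNK2B was higher in all H93 libraries than in all DMSO libraries, and it passed with only the 6 libraries compared (adjusted p = 0.00945, limma with Benjamini-Hochberg) and without SAHA replicate 2 (0.00779). It overlaps LY6G5B on the same strand, so its values are uncertain. LY6G5B stood at 12.6 ± 1.16 in DMSO, 17.1 ± 0.634 in H93 and 15.1 ± 1.05 in SAHA. CSNK2A3 is an intronless near-identical copy of CSNK2A1 inside GALNT18, so its rise from 9.79 to 11.1 is uncertain.

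Among the remaining SSU processome factors 5 of 9 fell and 1 rose. IMP4 and IMP3, both subunits of the MPP10 complex, went opposite ways. IMP4 stood at 29.6, 30.3 and 28.4 in DMSO, 20.7, 20.8 and 20.5 in H93 and 24, 22.5 and 23.8 in SAHA, with the 3 groups apart from each other. IMP3 stood at 56.5, 58.3 and 55.8 in DMSO and 62, 65.2 and 65.5 in H93, all H93 libraries above all DMSO libraries. The log2 difference was -0.49 for IMP4 (adjusted p = 6.74e-08) and 0.17 for IMP3 (adjusted p = 0.000359), from limma after Benjamini-Hochberg adjustment for both. The complex's central gene MPHOSPH10 was at 25.2 ± 1.31 and 26.4 ± 1.16 and did not pass. UTP14A, a helicase activator, fell from 15.3 ± 1.14 to 12.1 ± 0.474. NAT10, the acetyltransferase that modifies 18S ribosomal RNA, fell from 26.9 ± 0.464 to 23.4 ± 0.817, and the GTPase gene BMS1 from 35.2 ± 0.67 to 32.6 ± 0.304. FCF1, a nuclease of the processome, passed narrowly (-0.13, adjusted p = 0.0436, limma with Benjamini-Hochberg) and lost its call in 11 of 18 other settings, with an adjusted p of up to 0.179 without H93 replicate 3. RCL1 and the methyltransferase gene EMG1 did not pass. UTP14A, BMS1 and RRP7A have near-identical copies (UTP14C, BMS1P1 and RRP7BP) that are not rows of the table, so their values are uncertain in the same way as that of CSNK2A3.

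The box H/ACA ribonucleoproteins convert uridine to pseudouridine at sites set by their guide RNAs, and dyskerin (DKC1), GAR1, NHP2 and NOP10 are their core proteins. Here 3 of the 4 genes fell after H93 and the smallest protein's gene rose. DKC1 stood at 66.8, 68.3 and 65 in DMSO, 47.8, 49.5 and 48.6 in H93 and 56.7, 55.9 and 56 in SAHA, 3 groups apart. NHP2 fell from 131 ± 3.78 to 107 ± 3.48. GAR1 fell from 41, 33.3 and 36.1 to 30.3, 27.4 and 28.4, with DMSO replicate 1 above the other 2. NOP10 stood at 423, 429.8 and 427 in DMSO, 550.1, 552 and 553 in H93 and 509, 520.0 and 538 in SAHA. All treated libraries lay above all DMSO libraries, and NOP10 had the highest mean level of all members. In limma with Benjamini-Hochberg the log2 difference was -0.45 for DKC1 (adjusted p = 1.19e-08) and 0.37 for NOP10 (adjusted p = 1.64e-08). As a ratio of means, NOP10 was at 6.39 times DKC1 in DMSO and at 11.3 times in H93, per length of transcript.

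The box C/D ribonucleoproteins guide 2′-O-methylation, with fibrillarin (FBL) as the methyltransferase. They moved little. FBL fell from 241, 231 and 232 in DMSO to 215, 210.2 and 209 in H93, and the SAHA libraries, at 221, 234 and 244, spanned the DMSO range. NOP56 stood at 99.1 ± 0.166 in DMSO and 99.5 ± 3.38 in H93, with a 95% interval of the log2 difference of -0.050 to 0.060. NOP58 rose from 54.1 ± 1.16 to 58.3 ± 1.4, a call that was lost without DMSO replicate 1 (adjusted p = 0.066, limma with Benjamini-Hochberg), without DMSO replicate 2 (0.0517) or without H93 replicate 2 (0.0759). SNU13, which binds the kink-turn of the guide RNA, was at 46.5 ± 0.842 and 44.6 ± 1.46 and did not pass. FBLL1, an intronless copy of FBL, was under the level for testing, between 0 and 0.0829 in the 9 libraries.

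**Figure D2:**
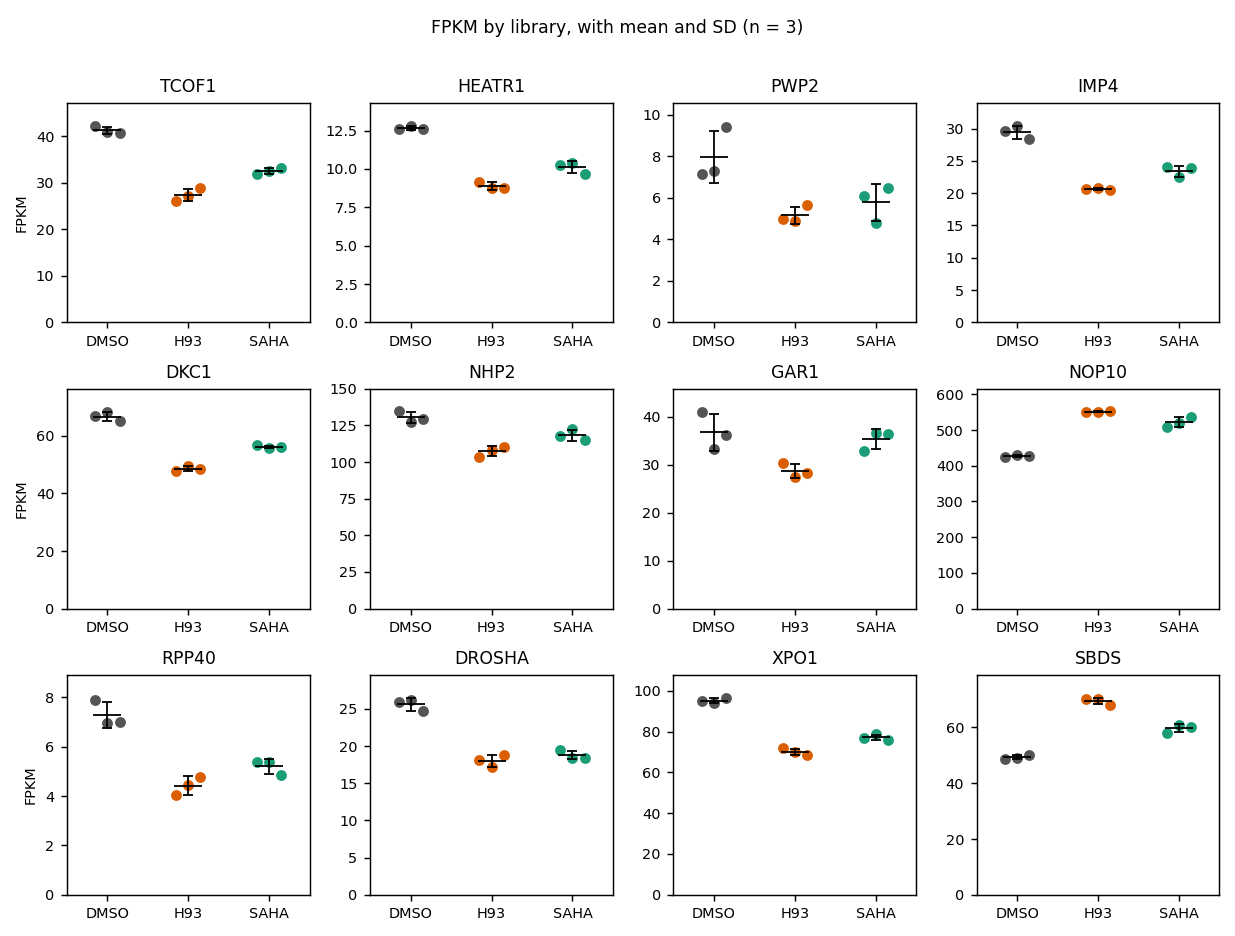
FPKM of 12 members in each of the 9 libraries (points), with the mean and SD of the 3 libraries per group (black); each panel has its own axis from 0. In the panels of TCOF1, IMP4, DKC1 and XPO1 the DMSO libraries are highest and the H93 libraries lowest, and in those of NOP10 and SBDS the order is the opposite.

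RNase MRP cuts the precursor within its first internal spacer and shares nearly all its proteins with RNase P, which matures transfer RNA. Of 9 genes 3 fell, 1 rose and 5 did not pass. The share that fell (33.3%) was near the 35.0% of all tested genes, and the share that rose (11.1%) was below their 34.9%. RPP40 had the lowest log2 difference of all members (-0.61, SE 0.063), at 7.9, 6.96 and 6.98 in DMSO and 4.03, 4.46 and 4.78 in H93. RPP25L fell from 23.2, 22.3 and 22.6 to 14.6, 15.9 and 14.7, while its paralogue RPP25 stood at 6.1 and 6.5 and did not pass. POP5 fell from 33 ± 0.576 to 29.4 ± 1.48. The scaffold gene POP1 (-0.14 to 0.048), POP4 (-0.14 to 0.095), POP7 (-0.13 to 0.11) and RPP38 (-0.099 to 0.085) did not pass, with these 95% intervals of the log2 difference. RPP30 passed as higher (0.13) but lost its call in 5 other settings, among them without DMSO replicate 1 (adjusted p = 0.123) and without H93 replicate 2 (0.114), in limma with Benjamini-Hochberg.

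Among the nucleases 3 of 7 fell and 2 rose. DROSHA, better known for cutting microRNA precursors, fell from 25.9, 26.2 and 24.7 to 18.1, 17.1 and 18.7, and NOB1, which makes the final 3′ end of 18S ribosomal RNA, from 94.8, 92.9 and 94.3 to 75.4, 74.4 and 73.1. The nuclear 5′ exonuclease gene XRN2 fell from 30.2 ± 0.929 to 26.1 ± 0.3. Its cytoplasmic counterpart XRN1 rose from 4.8, 5.17 and 5.09 to 6.13, 6.11 and 5.75, and REXO2, an exonuclease of short oligonucleotides, rose from 99.8, 104 and 96.5 to 118, 114 and 123. In each of these 5 genes the H93 and DMSO libraries did not overlap. REXO1 and REXO5 did not pass. The 3 late 40S genes all fell: the kinase gene RIOK1 from 16.1 ± 0.642 to 12.6 ± 0.705, RIOK2 from 5.01 ± 0.279 to 4.26 ± 0.28, and the adenylate kinase gene AK6 from 8.87 ± 0.511 to 6.44 ± 0.945. AK6 shares its locus and strand with TAF9, so reads there may be split between them. TAF9 stood at 29.9 to 31.6 in H93, 27.1 to 30.8 in SAHA and 30.9 to 34.0 in DMSO.

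The 60S factors were divided, with 5 of 11 tested members higher after H93 and 3 lower (45.5% and 27.3%, beside 34.9% and 35.0% of all tested genes). SBDS, the gene of Shwachman-Diamond syndrome, and EFL1, a GTPase, act together to release EIF6 from the 60S subunit in the cytoplasm. SBDS stood at 48.8, 49.2 and 50.3 in DMSO, 70.1, 70.1 and 68.1 in H93 and 58.2, 60.9 and 60.2 in SAHA, with the 3 groups apart. Its log2 difference of 0.48 (SE 0.0259, adjusted p = 6.91e-09, limma with Benjamini-Hochberg) was the highest of all members. SBDS has a near-identical pseudogene, SBDSP1, which is not a row of the table, so its value is uncertain as to which copy gave the reads. EFL1 rose from 7.86, 8.45 and 8.66 to 10.6, 10.7 and 9.83, without overlap. EIF6, the anti-association factor that they remove, rose from 183 ± 4.29 to 194 ± 1.59. LSG1, a GTPase that recycles the export adaptor NMD3, rose from 25.8 ± 1.2 to 29.9 ± 1.06, and the nucleolar GTPase gene GTPBP4 from 78.5 ± 0.556 to 88.7 ± 0.866. The 3 that fell were the AAA ATPase gene MDN1 (-0.16) and the GTPase genes GNL3 (-0.15; nucleostemin) and GNL3L (-0.19), all as log2 differences. GNL2, NVL and RBM28 did not pass, and SPATA5 was under the level for testing, at 0.725 to 0.853.

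XPO1 (exportin 1), the receptor for both subunits and for many proteins with a nuclear export signal, stood at 95.1, 93.8 and 96.6 in DMSO, 71.7, 69.96 and 68.6 in H93 and 76.7, 78.6 and 76 in SAHA. The H93 libraries were the lowest and the DMSO libraries the highest, with no overlap (log2 difference of H93 against DMSO -0.44, SE 0.0249). RAN, the GTPase that drives export, fell from 198 ± 1.17 to 182 ± 5.39. NMD3, the adaptor between XPO1 and the 60S subunit, rose from 22.9 ± 0.599 to 24.5 ± 0.538, and lost its call without DMSO replicate 3 (adjusted p = 0.0735), H93 replicate 1 (0.0525) or H93 replicate 2 (0.0636), in limma with Benjamini-Hochberg. NXF1, the main mRNA export receptor, rose from 17.8, 19.6 and 20.1 to 22.2, 23.6 and 23.7, whereas its cofactor NXT1 fell from 22.5 ± 0.426 to 19 ± 0.103 and the paralogue NXT2 did not pass. NXF3 was listed at 0 in the DMSO libraries and at 0.0568 to 0.085 in H93, and NXF5 was above 0 in 1 SAHA library only (0.0227), both under the level for testing.

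The sum over all members moved little, while the most abundant members and the rest went opposite ways. The 75 genes together summed to an FPKM of 3248, 3228 and 3223 in DMSO, 3199, 3216 and 3215 in H93 and 3225, 3266 and 3289 in SAHA, which was 0.917% to 0.926% of each library. The 5 members of highest mean level (NOP10, FBL, RAN, EIF6 and CSNK2B) held 39% of that sum, and their sum went from 1195 ± 1.1 to 1301 ± 4.02 in H93 and 1292 ± 30.2 in SAHA. The other 70 went from 2038 ± 13.1 to 1909 ± 9.45 and 1968 ± 15.9. NOP10 accounted for more than the whole gain of the 5 in H93: its mean went from 427 to 552, while FBL and RAN fell. No test was made of the sums.

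**Figure D3:**
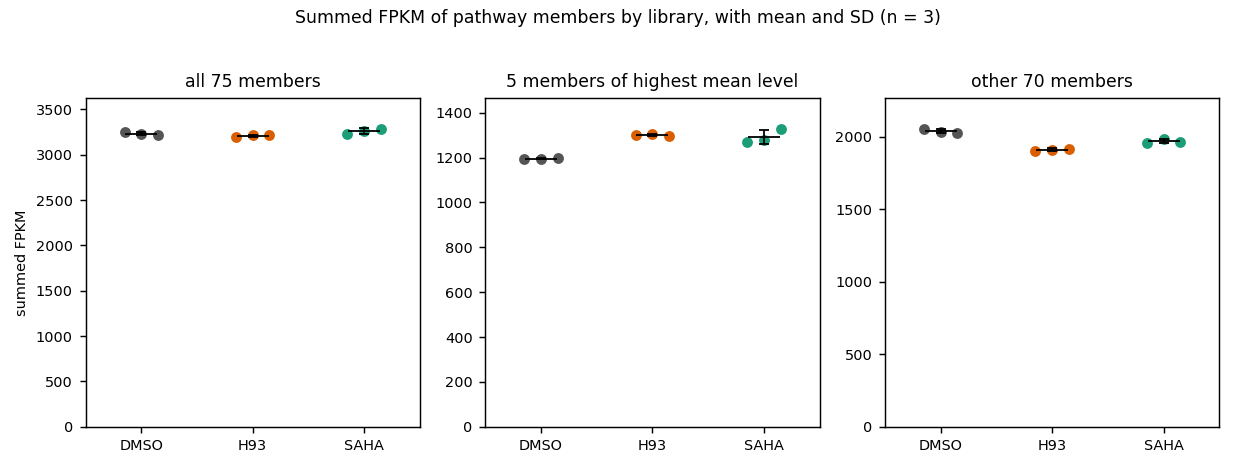
Summed FPKM of all 75 members (left), of the 5 with the highest mean level (middle) and of the other 70 (right) in each library (points), with mean and SD of 3 libraries per group; axes start at 0. The left panel is nearly level, the middle rises from 1195 ± 1.1 to 1301 ± 4.02 with H93, and the right falls from 2038 ± 13.1 to 1909 ± 9.45.

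The second comparison asked the same of SAHA, with the same DMSO libraries, so that its values are not independent of those above. Fewer members passed: 26 of 71 fell (36.6%) and 12 rose (16.9%), where 31.4% and 27.4% of all tested genes did, 58.8% in either direction. The median log2 difference was -0.043 for members and -0.015 for all tested genes, and none changed 2-fold (background 1.12%). The lowest log2 differences among the members that fell were those of DROSHA (-0.43, SE 0.0387; 19.4, 18.5 and 18.5 against 25.9, 26.2 and 24.7), RPP40 (-0.42), RPP25L (-0.41) and PWP2 (-0.40). AK6 (-0.35), TCOF1 (-0.34), IMP4 (-0.32) and HEATR1 (-0.30) followed. For AK6 the doubt over reads shared with TAF9 holds here too, as every SAHA library lay below every DMSO library in TAF9. Among the members that rose the highest were NOP10 (0.29), SBDS (0.27), EFL1 (0.18), REXO2 (0.17) and CSNK2A2 (0.15). EFL1 lost its call without DMSO replicate 1 (adjusted p = 0.0537, limma with Benjamini-Hochberg) or SAHA replicate 2 (0.0559).

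By role, to be read against the 31.4% and 27.4% above, 3 of 5 UTP-A genes, 5 of 6 UTP-B genes and the 3 late 40S genes fell after SAHA, and 0 of these rose. WDR3 of UTP-B fell from 8.28, 8.59 and 8.39 to 7.29, 7.79 and 7.11, without overlap. Of the 60S factors 5 of 11 rose (SBDS, EFL1, GTPBP4, EIF6 and GNL2) and 0 fell. These counts depended on single libraries. In limma with Benjamini-Hochberg, GNL3 (adjusted p = 0.0451) and GNL3L (0.029) passed as lower without SAHA replicate 2. NVL passed as lower without DMSO replicate 1 (0.0304), and LSG1 as higher without DMSO replicate 3 (0.045), by the same test. Of the 4 box H/ACA genes DKC1 and NHP2 fell, NOP10 rose, and GAR1, at 32.9, 36.5 and 36.5, overlapped with DMSO and did not pass. NOP56, a core protein of the box C/D particle, rose from 99.2, 98.9 and 99.1 to 109.7, 110.2 and 109.6, while FBL did not pass (-0.081 to 0.061, 95% interval of the log2 difference). XPO1 (-0.30) and NXT1 (-0.17) were the export genes that fell, and 0 rose. RPP25 (0.13) passed at the edge and lost its call in 11 of 18 other settings, with an adjusted p of up to 0.227 without DMSO replicate 3 in limma with Benjamini-Hochberg. Calls of EMG1, GNL2 and IMP3 as higher were also lost without single libraries: EMG1 at an adjusted p of up to 0.0992 without SAHA replicate 3, GNL2 at 0.0589 without DMSO replicate 1 and 0.0591 without SAHA replicate 1, and IMP3 at 0.0529 without SAHA replicate 1, all in limma with Benjamini-Hochberg.

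The third comparison set H93 directly against SAHA, at the doses given, with the DMSO libraries entering only the estimate of the spread. Of 71 members 19 were lower in H93 than in SAHA (26.8%) and 11 higher (15.5%), where 13.9% of all tested genes were lower and 17.6% higher, 31.5% in either direction. The median log2 difference was -0.054 for members and 0.016 for all tested genes, and 0 members differed 2-fold (background 0.0174%). With median-ratio rescaling 23 members were lower and 7 higher, and with quantile normalization 24 and 7, so that the share of lower genes among those called went from 63.3% to 76.7% and 77.4%. The count of higher members was 5 without H93 replicate 2, 6 without H93 replicate 1 or SAHA replicate 3, and 7 without H93 replicate 3 or SAHA replicate 1. Of the 30 members called, 15 kept their call in all 18 other settings.

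GAR1 had the lowest log2 difference of H93 against SAHA (-0.29, SE 0.0653, adjusted p = 0.00595, limma with Benjamini-Hochberg), with H93 libraries at 30.3, 27.4 and 28.4 and SAHA libraries at 32.9, 36.5 and 36.5. TCOF1 followed at -0.24, UTP14A at -0.22, DKC1 at -0.21, RPP40 at -0.19, NOB1 at -0.18, IMP4 at -0.17 and HEATR1 at -0.16. In limma with Benjamini-Hochberg, UTP14A lost its call without SAHA replicate 3 (adjusted p = 0.0557), and RPP40 without H93 replicate 1 (0.133), H93 replicate 2 (0.0678), SAHA replicate 1 (0.0931) or SAHA replicate 2 (0.0985). The box C/D genes FBL (-0.14), NOP56 (-0.14) and SNU13 (-0.15) were lower in H93, while NOP58 (0.073) did not pass. In NOP56, every H93 library (95.6, 101 and 101) lay below every SAHA library (109.7, 110.2 and 109.6). EMG1 was at 18.2, 17.9 and 18.2 in H93 and 19.4, 20.2 and 20.4 in SAHA (log2 difference -0.14). SBDS (0.21) and NXF1 (0.21) were the highest in H93 relative to SAHA, followed by NVL (0.19), MPHOSPH10 (0.16), CSNK2B (0.15), LSG1 (0.14), CSNK2A3 (0.14) and XRN1 (0.13). NVL, a 60S AAA ATPase gene, lost its call without SAHA replicate 3 (adjusted p = 0.051), MPHOSPH10 without H93 replicate 2 (0.0551) and LSG1 without H93 replicate 1 (0.0601), H93 replicate 2 (0.0569) or SAHA replicate 3 (0.065), in limma with Benjamini-Hochberg. XRN1 lost it in 11 of 18 other settings, with an adjusted p of up to 0.116 without H93 replicate 1 in limma with Benjamini-Hochberg. The 3 casein kinase 2 genes CSNK2B, CSNK2A3 and CSNK2A2 were higher in H93, with an adjusted p of 0.0305, 0.038 and 0.0486 in limma with Benjamini-Hochberg. Without single libraries their adjusted p in limma with Benjamini-Hochberg reached 0.0785 for CSNK2B (without H93 replicate 3), 0.132 for CSNK2A3 (without SAHA replicate 1) and 0.188 for CSNK2A2 (without H93 replicate 1). CSNK2A2 and CSNK2A3 also lost their calls with no filter on low values, with either rescaling, with only the 6 libraries compared and with the replicate block, and CSNK2B lost its call with no filter. For DROSHA (-0.14 to 0.024), PWP2 (-0.35 to 0.096), WDR36 (-0.087 to 0.053) and GTPBP4 (-0.024 to 0.079) the 2 compounds were not told apart, with these 95% intervals of the log2 difference.

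**Figure D4:**
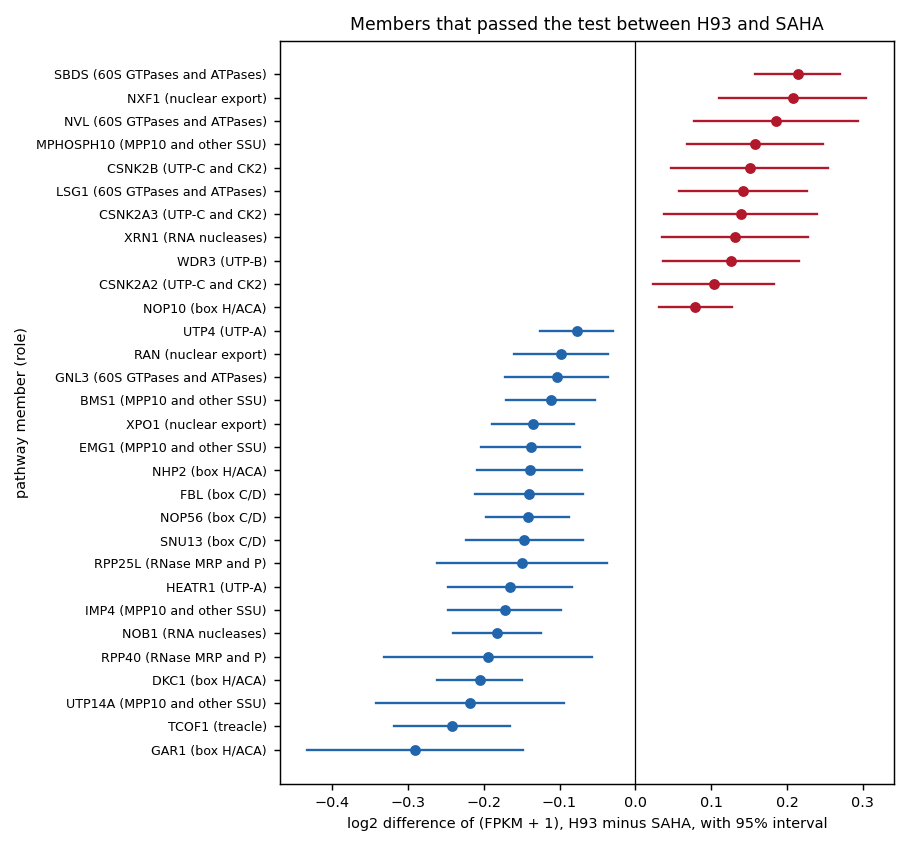
Log2 differences of log2(FPKM + 1), H93 minus SAHA, with 95% intervals for the 30 members that passed (3 libraries per group). The 19 blue genes were lower in H93, down to -0.29 for GAR1, and the 11 red genes higher, up to 0.21 for SBDS.

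Other ribosome biogenesis genes, not in the pathway entry, were listed from textbook knowledge, but with earlier results of these data known. Of 120 such genes tested, 63 fell and 21 rose after H93, with a median log2 difference of -0.097. These were 52.5% and 17.5%, beside 35.0% and 34.9% of all tested genes. After SAHA 57 fell (47.5%) and 18 rose (15%), beside 31.4% and 27.4% of all tested genes. Among 40S assembly factors 17 of 33 fell after H93 and 6 rose. The helicase gene DHX37 fell from 23.8 ± 0.677 to 13.1 ± 0.561 and UTP20, a large processome scaffold, from 20.6 ± 0.59 to 11.8 ± 0.408, both more than any pathway member on the log2 scale (-0.82 and -0.75). UTP3 rose from 22.4 ± 1.06 to 28.2 ± 0.588. Among 60S assembly factors 28 of 43 fell and 6 rose, with the helicase gene DDX54 from 51.5 ± 1.44 to 32.4 ± 0.673, BOP1 from 65.5 ± 1.92 to 44.3 ± 0.994 and WDR18 from 84.1 ± 3.56 to 63.6 ± 1.05.

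Of 9 nucleolar chaperone and scaffold genes 6 fell and 0 rose after H93, with nucleophosmin NPM1 from 439 ± 3.11 to 322 ± 4.23, nucleolin NCL at -0.51 and NPM3 at -0.45 on the log2 scale. Of 15 genes for RNA polymerase I and its initiation factors 5 fell, 1 rose and 9 did not pass. The share that fell (33.3%) was near the 35.0% of all tested genes, and the share that rose (6.67%) was below their 34.9%. UBTF, the ribosomal DNA binding factor, fell from 32.2 ± 1.08 to 25.2 ± 0.376, the largest subunit gene POLR1A from 10.6 ± 0.241 to 8.92 ± 0.0897, and POLR1G from 14.5 ± 1.55 to 9.59 ± 0.452, while POLR1F rose from 14.1 ± 0.412 to 20.1 ± 0.627. Of 14 exosome genes 4 fell (28.6%) and 5 rose (35.7%), shares near those of all tested genes, with EXOSC5 and EXOSC10 lower (-0.57 and -0.30) and the cofactor C1D higher (0.36).

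MYC encodes a known activator of many of these genes, and its mRNA level was read as well. That level does not give the amount or activity of the protein, and a part of MYC in the differences above was not tested. MYC stood at 28.5, 27.1 and 27.1 in DMSO, 29.5, 30.6 and 30.7 in H93 and 29.7, 28 and 30.1 in SAHA. It rose after H93 (log2 difference 0.13, adjusted p = 0.00464, limma with Benjamini-Hochberg) and did not pass after SAHA (0.083, adjusted p = 0.0552), though it did without DMSO replicate 1 (0.0312), without SAHA replicate 2 (0.0146) and under median-ratio rescaling (0.0287) or quantile normalization (0.0282). Its dimerization partner MAX rose from 19.8 ± 0.427 to 31.8 ± 1.04 and 27.1 ± 0.94. The MYC antagonist MXI1 rose from 7.05 ± 0.452 to 9.77 ± 0.126 and 9.7 ± 0.722, and MXD4 fell from 16.6 ± 0.483 to 14.4 ± 0.562 and 13 ± 0.173. Of 7 listed regulators of ribosome synthesis, 4 fell (57.1%) and 3 rose (42.9%) after H93, beside 35.0% and 34.9% of all tested genes. Of those that fell only MXD4 is named here. The list holds activators such as MYC and antagonists such as MXI1, so its shares give no direction for ribosome synthesis. After SAHA 4 fell (57.1%) and 2 rose (28.6%), beside 31.4% and 27.4%.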

How the data were processed

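Stranded mRNA libraries of DU145 cells (3 groups of 3) were made with a TruSeq kit, per the labels' protocols. The authors deposited 1 table of FPKM values per gene, made on GRCh38.p13 with Cufflinks, HISAT2 and Trimmomatic 0.36 among the tools, per the submitters' processing notes. The annotation and the strand setting were not given in the sources used here. FPKM carries no counts, so absolute depth is unknown and no count model was used. Values were taken as log2(FPKM + 1), which understates changes of low genes. Genes at FPKM 1 or more in at least 3 libraries (11525) were fitted over all 9 libraries in limma 3.58.1 (R 4.3.3, trended empirical Bayes), with Benjamini-Hochberg adjustment over all of them and a threshold of 0.05. The fit was also run on simulated independent values with 200 changed genes. Such a run cannot show whether the spread among the real libraries is technical only. Medians, sums and motif shares were computed in Python 3.11.15. Members and gene lists were chosen with earlier results of these data known. Named genes were, per comparison, the 8 largest falls and rises among members that passed, the highest and most changed member per role, fixed members such as FBL and XPO1, members under the filter, and up to 3 genes per related list, besides NCL, NPM1, UBTF, POLR1A and MYC. Other members were named after their values were seen, to complete each role. Alternatives were the pseudocount (0.1 or 5), the filter, the scaling, robust moderation, the 6 libraries compared, a replicate block, and each library left out. Genome positions of genes are from GENCODE 29, and overlaps between genes were read from it.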

Additional observations from a re-analysis of the deposited data

How the results depend on the processing

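No result reversed among the called members and the counts in 18 alternative settings. Of the members called in H93 against DMSO, 45 of 49 kept their call in all of them, in SAHA against DMSO 33 of 38, and in H93 against SAHA 15 of 30. The count of members higher in H93 than in SAHA was 11, and 7 with no filter on low values, with median-ratio rescaling, with quantile normalization, with only the 6 libraries compared and with the replicate block; leaving out single libraries gave 5 to 10. The median log2 difference of the members in H93 against SAHA was -0.054, and -0.033 with a pseudocount of 5, -0.067 with median-ratio rescaling and -0.068 with quantile normalization. Leaving out single libraries gave -0.059 to -0.028 for it, and -0.078 to -0.048 for the median in H93 against DMSO (-0.055). The causes were not tested. Finding members by contained words gave the same 75 genes. The labels do not say whether replicate numbers pair the samples. Same-numbered libraries had deviations from their group means that correlated at -0.0975 to 0.0355 across genes, and different-numbered libraries at -0.0495 to 0.0697. No deviation shared by number was seen, which cannot exclude a pairing. With the replicate block 16 members were higher and 33 lower in H93 against DMSO, 11 and 27 in SAHA against DMSO, and 7 and 17 in H93 against SAHA, with 48, 36 and 24 of the original calls among them. Absolute depth is unknown, so no counting error can be given for low members such as NXF3.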
